A study of Zea mays with 24 samples.

Results

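The maize gene grp1, named for a glycine-rich protein, was read by 6 of the 8475 probe sets of a pilot Affymetrix maize GeneChip. A probe set is a group of short oligonucleotide probes that together report 1 transcript sequence. The members were all probe sets whose gene symbol or reference synonym is grp1 in the platform's probe-to-gene table, matched without regard to case. In that table they carry the symbol LOC542725, and grp1 is its synonym in the maize gene table of the assembly Zm-B73-REFERENCE-NAM-5.0. The gene was selected on the measured signal of 1 of its probe sets, Zm1Affx.304.1.A1_x_at, which fell below Mo17, W23 and Wf9 in B73, so the B73 values of that probe set are given as a description, with no test. The remaining 5 belong by their name and not by their values.

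Total RNA came from leaves 3, 4 and 5 of several greenhouse plants of 4 inbred maize lines, B73, Mo17, W23 and Wf9. B73 and Mo17 are parents of a widely used mapping population, B73 is the line of the reference genome, and W23 and Wf9 are older inbred lines. Plants were grown and RNA was prepared in 3 separate rounds per line, and each of the 12 RNAs was hybridised to 2 arrays as technical replicates, 24 arrays in all. Each line is a single inbred, and each RNA pools plants. The first array of B73 replicate 3 stands apart. Its correlation with its partner array was 0.948, against at least 0.9935 in the other 11 RNAs, with control probe sets and exact zeros left out. On that array 213 probe sets had an exact 0, none of them a grp1 probe set.

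Glycine-rich proteins are plant proteins with long stretches of glycine repeats. Some are structural proteins of the cell wall, often in vascular tissue. Others carry an RNA recognition motif before the glycine-rich part and bind RNA, and in other plants transcripts of that second kind respond to cold, water stress and the circadian clock. The tables used here do not say to which kind the maize grp1 protein belongs. Leaf transcripts of C4 enzymes and of the small Rubisco subunit were among 10 leaf marker probe sets with line means of 7.95 to 11636, all 6 endosperm marker probe sets and the 1 pollen probe set were at or below background on every array, and 2 root marker probe sets had line means of 10.9 to 89.0.

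The 6 grp1 probe sets come from 4 sequences. In Affymetrix naming, A1 and S1 mark probe sets made to the opposite orientations of a sequence, and the suffix x marks probes that are shared with other sequences. Zm1Affx.145.1 and Zm1Affx.444.1 are represented in both orientations, Zm1Affx.304.1 and Zm3.10811.1 in A1 only. Zm3.10811.1.A1_at is the only one of the 6 without the x suffix, so the signal of the remaining 5 can hold transcripts of related genes. The probe sets share a gene name and are not replicates of each other.

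The 4 A1 probe sets were above background on all 24 arrays, the background being a signal of 16.7, set from control probe sets for transcripts that were not added. In B73 leaves 2 of them, Zm1Affx.304.1.A1_x_at and Zm1Affx.145.1.A1_x_at, read far less than in the leaves of the other lines. No difference between lines passed the test in Zm3.10811.1.A1_at, and the dim Zm1Affx.444.1.A1_x_at had its highest mean in B73, above Mo17 and W23 in the test but not above Wf9. The probe sets of 1 gene therefore did not give 1 order of the lines.

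**Figure D1:**
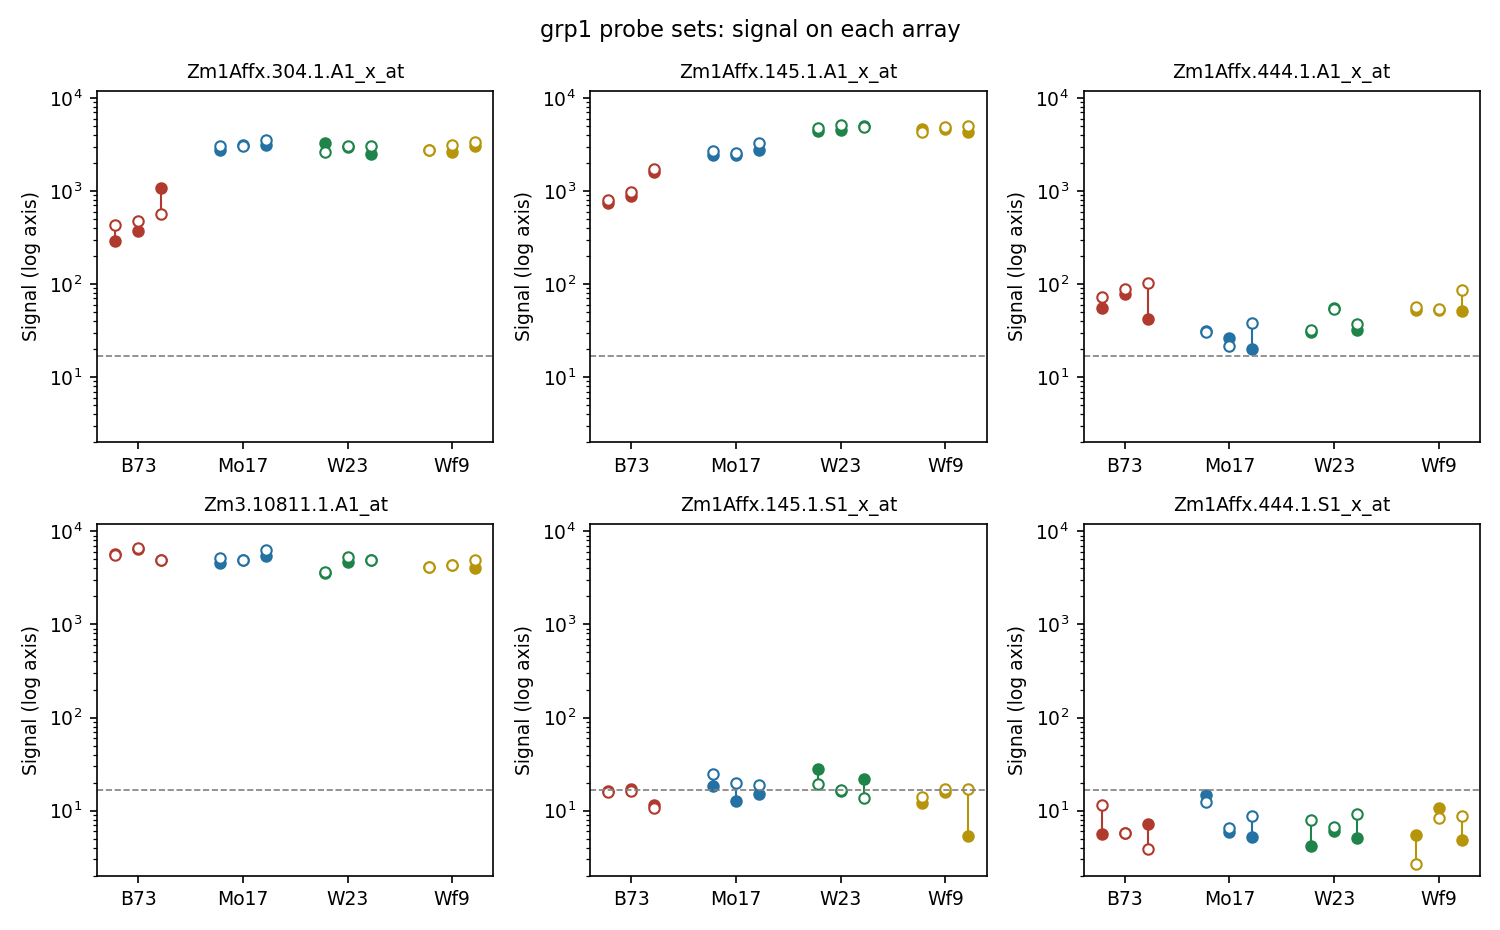
Signal (log axis) of the 6 grp1 probe sets on each of 24 arrays, by line. Each vertical pair is 1 RNA, with replicates 1 to 3 from left to right, a filled point for technical array 1 and an open point for array 2, and the dashed line is the background level of 16.7. B73 lies below the other lines for Zm1Affx.304.1.A1_x_at and Zm1Affx.145.1.A1_x_at, and the S1 probe sets lie near or below background.

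Zm1Affx.304.1.A1_x_at is the probe set for which the gene was chosen. Its signal, as the mean of both arrays of each RNA, was 363, 422 and 818 in B73, against 2893, 3077 and 3311 in Mo17, 2927, 3004 and 2760 in W23, and 2732, 2897 and 3216 in Wf9. No B73 array reached the lowest array of any other line, 2487 in W23. The B73 mean was 534 ± 248, against 3093 ± 210 for Mo17, 2897 ± 125 for W23 and 2948 ± 246 for Wf9 (SD, n = 3 each). By the ratio of geometric means, which is used for every fold here, B73 was 6.17-fold, 5.79-fold and 5.88-fold below them. Its difference between B73 and the mean of the other lines was -2.56 on the log2(signal + 16) scale, rank 9 from the lowest of the 8346 probe sets that are not controls, whose median was -0.05. In whole leaves, fewer cells of a type and less RNA per cell cannot be told apart. A low signal in a line can reflect less RNA or a line's own sequence under the probes, and these cannot be told apart here, since no probe sequence or single-probe value was used.

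Differences among Mo17, W23 and Wf9 played no part in that choice. For Zm1Affx.304.1.A1_x_at they were small, and limma's F-test over the 3 lines did not pass the threshold of 0.05 (adjusted p = 0.961). The log2 difference Mo17 minus W23 was 0.10 (95% confidence interval -0.42 to 0.61), Mo17 minus Wf9 was 0.07 (-0.44 to 0.58) and W23 minus Wf9 was -0.03 (-0.54 to 0.49).

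Zm1Affx.145.1.A1_x_at also read lowest in B73, but with a second step between Mo17 and the other lines. Its replicates had 773, 920 and 1669 in B73, against 2574, 2498 and 3021 in Mo17, 4555, 4789 and 4923 in W23, and 4454, 4775 and 4634 in Wf9. No array of B73 reached one of Mo17, and no array of Mo17 reached one of W23 or Wf9. B73, at 1121 ± 480, was 2.54-fold below Mo17, at 2698 ± 283 (log2 difference -1.33 ± 0.23 SE, limma adjusted p = 0.00214), 4.49-fold below W23, at 4756 ± 186 (-2.15 ± 0.23, limma adjusted p = 5.87e-05), and 4.36-fold below Wf9, at 4621 ± 161 (-2.11 ± 0.23, limma adjusted p = 7.30e-05). These 3 calls held in all 27 alternatives tried. Because this probe set has the gene's name and shares its samples with Zm1Affx.304.1.A1_x_at, it is a second reading of the same RNAs and not a second experiment. Within lines the 2 probe sets had r = 0.96 over the 12 replicates. That r draws mostly on B73, where their SDs on the log2 scale were 0.57 and 0.58, against 0.05 to 0.14 in the other lines. The B73 calls of Zm1Affx.145.1.A1_x_at are therefore not independent of the reading for which the gene was chosen.

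Between the remaining lines, Mo17 was 1.77-fold below W23 in Zm1Affx.145.1.A1_x_at (log2 difference -0.82 ± 0.23, limma adjusted p = 0.0363) and 1.72-fold below Wf9 (-0.78 ± 0.23, limma adjusted p = 0.0416). W23 and Wf9 differed by 0.04 (95% confidence interval -0.47 to 0.55). Both Mo17 calls were near the threshold and were lost in 9 and 11 of 27 alternatives. The highest adjusted p in limma was 0.118 for Mo17 against W23 and 0.129 for Mo17 against Wf9, both without Mo17 replicate 2, and leaving out any 1 replicate of Mo17 or W23, or Wf9 replicate 1, ended both calls. The SD on the log2 scale, which the joint fit pools over lines, was 0.57 in B73, against 0.14, 0.06 and 0.05 in Mo17, W23 and Wf9.

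Zm3.10811.1.A1_at carries no mark of shared probes and was bright in every line. Its replicates had 5660, 6553 and 4959 in B73, against 4888, 4879 and 5888 in Mo17, 3604, 5025 and 4930 in W23, and 4142, 4364 and 4474 in Wf9. B73 had the highest mean, 5724 ± 799, against 5218 ± 580 in Mo17, 4520 ± 794 in W23 and 4327 ± 169 in Wf9, but its arrays overlapped those of Mo17 and W23, though not those of Wf9. The F-test over the 4 lines did not pass (limma adjusted p = 0.261). The log2 difference B73 minus Mo17 was 0.13 (95% confidence interval -0.26 to 0.52), B73 minus W23 was 0.35 (-0.04 to 0.73) and B73 minus Wf9 was 0.40 (0.01 to 0.78, adjusted p = 0.169). These intervals lie above the differences of -1.33 to -2.15 seen in Zm1Affx.145.1.A1_x_at for the same pairs of lines. The B73 minus Wf9 contrast passed the threshold in 2 of 27 alternatives.

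Zm1Affx.444.1.A1_x_at was dim, and its lines stood in a different order. Its replicates had 63.95, 83.5 and 71.9 in B73, against 31.1, 23.9 and 29.4 in Mo17, 31.5, 54.6 and 34.6 in W23, and 55.1, 53.3 and 69.6 in Wf9. B73 averaged 73.1 ± 9.85, against 28.1 ± 3.76 in Mo17, 40.2 ± 12.5 in W23 and 59.4 ± 8.93 in Wf9. B73 was 2.60-fold above Mo17 with no overlap of arrays (log2 difference 0.99 ± 0.18, limma adjusted p = 0.00263) and 1.86-fold above W23 with overlapping arrays (0.65 ± 0.18, limma adjusted p = 0.0291), a call lost in 6 of 27 alternatives, among them those without B73 replicate 2, W23 replicate 1 or W23 replicate 3 (adjusted p = 0.0841, 0.109 and 0.115). The overlap of B73 with W23 came only from the first array of B73 replicate 3, at 42.5, against a highest W23 array of 54.7. Without that array B73 minus W23 was 0.82 (limma adjusted p = 0.0107). Mo17 was 2.11-fold below Wf9 (-0.77 ± 0.18, limma adjusted p = 0.0116), and without Mo17 replicate 2 the adjusted p was 0.0538. B73 minus Wf9 was 0.22 (95% confidence interval -0.17 to 0.62) and did not pass. The pseudocount of 16 understates differences at this signal.

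The S1 probe sets gave little or no signal. Zm1Affx.444.1.S1_x_at lay between 2.70 and 14.6, below background on all 24 arrays, and no fold is given for it. Zm1Affx.145.1.S1_x_at lay between 5.30 and 27.7 and was above background on 1 of 6 B73 arrays, 4 of 6 Mo17 arrays, 4 of 6 W23 arrays and 2 of 6 Wf9 arrays. Neither passed the F-test over the 4 lines (limma adjusted p = 0.722 and 0.305). In the A1 orientation of the same sequences the signal was above background on every array.

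Of the 5 probe sets other than the one the gene was chosen for, 2 passed limma's F-test over the 4 lines, Zm1Affx.145.1.A1_x_at (adjusted p = 6.26e-05) and Zm1Affx.444.1.A1_x_at (adjusted p = 0.00449), against 30.5% of all 8346 probe sets. Over Mo17, W23 and Wf9 alone 2 of all 6 passed, the same pair, with adjusted p of 0.0331 and 0.0216, against 24.3% of all probe sets. The call of Zm1Affx.145.1.A1_x_at over these 3 lines was lost in 10 of 26 alternatives, among them each left-out replicate of Mo17, W23 and Wf9, and that of Zm1Affx.444.1.A1_x_at in 5, and leaving out Mo17 replicate 2, Wf9 replicate 1 or Wf9 replicate 3 ended both. With counts this small, the shares are a description and set grp1 apart from no other gene.

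By pair of lines, limma called 8 of 33 tests. In B73 against Mo17, 1 of 5 probe sets was lower and 1 of 5 higher, against 7.00% lower and 7.66% higher of all probe sets. In B73 against W23, 1 of 5 was lower and 1 of 5 higher, against 7.57% lower and 8.42% higher. In B73 against Wf9, 1 of 5 was lower, against 6.87%, and 0 were higher, against 7.60%. Mo17 was lower than W23 in 1 of 6, against 6.78%, and higher in 0, against 7.11%. It was lower than Wf9 in 2 of 6, against 8.12%, and higher in 0, against 8.18%. Between W23 and Wf9 limma called 0 of 6 at the adjusted threshold and 1 at an unadjusted p under 0.05, against 7.81% lower and 7.44% higher in W23 among all probe sets. The called probe sets thus went opposite ways in B73 against Mo17 and W23. The 2 called in Mo17 against Wf9 went the same way, with Mo17 lower. Those not called lay above 0 there, at log2 differences of 0.07 to 0.26. In B73 against Wf9, Zm1Affx.145.1.A1_x_at was lower, whereas Zm3.10811.1.A1_at and Zm1Affx.444.1.A1_x_at lay above 0 without a call (0.40 and 0.22).

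**Figure D2:**
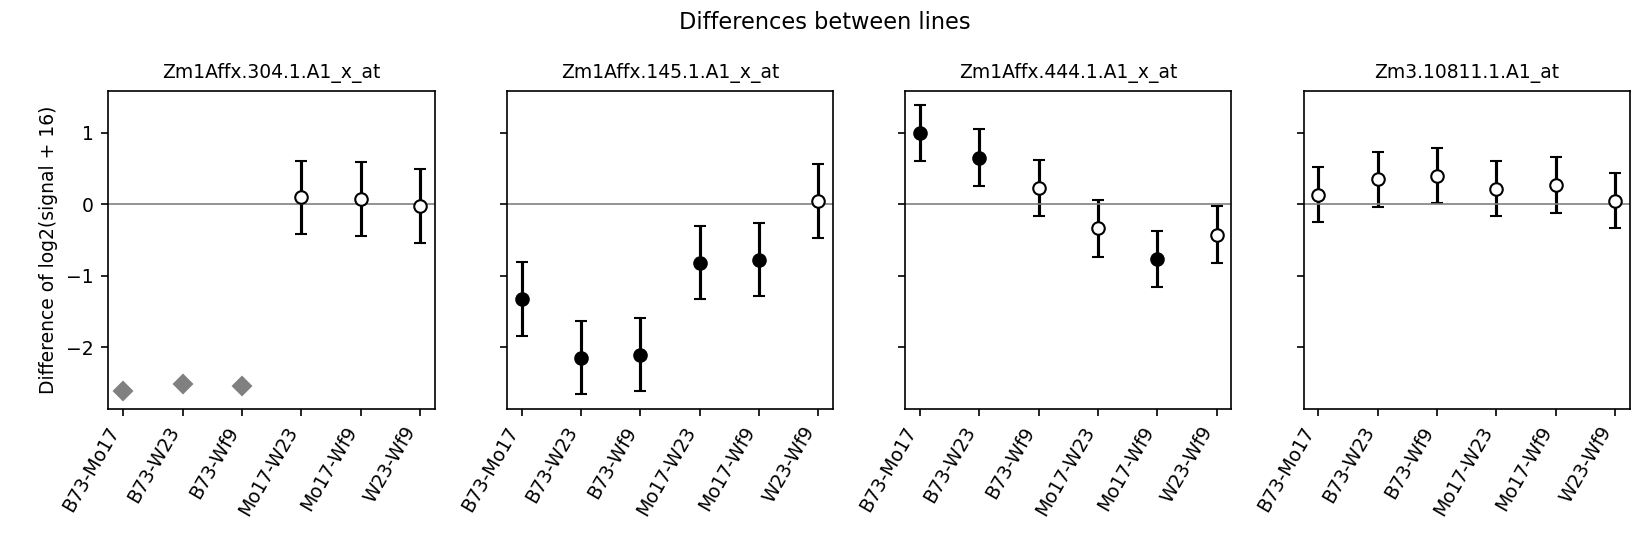
Difference of log2(signal + 16) between pairs of lines, first line minus second, for the 4 A1 probe sets of grp1, with 95% confidence intervals from limma. Filled points passed the adjusted threshold of 0.05, open points did not, and grey diamonds are the B73 contrasts by which the gene was chosen, which were not tested. The B73 contrasts with Mo17 and W23 lie below 0 for Zm1Affx.145.1.A1_x_at and above 0 for Zm1Affx.444.1.A1_x_at.

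Whether 2 probe sets follow the lines differently was tested on the difference of their log2 values within each RNA. An exact permutation F-test over the biological replicates was used, adjusted over 9 tests. Only changes of that difference between lines are read, since probe sets differ in brightness. The test takes replicates as exchangeable between lines, so unequal spreads limit what its p measures. Between Zm1Affx.145.1.A1_x_at and Zm3.10811.1.A1_at it differed among the 4 lines (exact permutation p = 0.000649, adjusted p = 0.00292). The SD of this difference was 0.73 in B73, against 0.02, 0.22 and 0.04 in Mo17, W23 and Wf9. B73 minus Mo17 was -1.46, B73 minus W23 was -2.50 and B73 minus Wf9 was -2.50. Between Zm1Affx.145.1.A1_x_at and Zm1Affx.444.1.A1_x_at it also differed (exact permutation p = 0.00182, adjusted p = 0.00545), and the same contrasts were -2.32, -2.80 and -2.33. Here the SD was 0.62 in B73, against 0.16, 0.30 and 0.16 in Mo17, W23 and Wf9. Between Zm1Affx.444.1.A1_x_at and Zm3.10811.1.A1_at it differed too (exact permutation p = 0.00026, adjusted p = 0.00234), with 0.86 for B73 minus Mo17, 0.30 for B73 minus W23 and -0.17 for B73 minus Wf9. The tests with Zm1Affx.145.1.A1_x_at include its B73 values and so are not independent of the reading for which the gene was chosen.

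The same test over Mo17, W23 and Wf9 leaves out the line by which the gene was chosen. The 2 probe sets that were both low in B73 did not follow these lines alike: the difference of Zm1Affx.145.1.A1_x_at from Zm1Affx.304.1.A1_x_at was -0.92 for Mo17 minus W23 and -0.85 for Mo17 minus Wf9 (exact permutation p = 0.0214, adjusted p = 0.0321). Against Zm3.10811.1.A1_at, Zm1Affx.145.1.A1_x_at gave -1.04 for both of these contrasts (exact permutation p = 0.0357, adjusted p = 0.0459). For Zm1Affx.304.1.A1_x_at against Zm3.10811.1.A1_at the contrasts were -0.12 for Mo17 minus W23 and -0.19 for Mo17 minus Wf9 and the test did not pass (exact permutation p = 0.425). Zm1Affx.444.1.A1_x_at differed from Zm1Affx.304.1.A1_x_at and from Zm3.10811.1.A1_at over these lines (exact permutation p = 0.00357 for both, the smallest that 280 groupings allow, adjusted p = 0.00643), but not beyond the threshold from Zm1Affx.145.1.A1_x_at (exact permutation p = 0.1, adjusted p = 0.113). On technical array 1 alone the exact permutation tests of Zm1Affx.145.1.A1_x_at against Zm1Affx.304.1.A1_x_at and Zm3.10811.1.A1_at had adjusted p of 0.0536 and 0.0514, and that of Zm1Affx.304.1.A1_x_at against Zm1Affx.444.1.A1_x_at had 0.0597. The test of Zm1Affx.145.1.A1_x_at against Zm1Affx.444.1.A1_x_at passed on technical array 2 alone (adjusted p = 0.0482) and with a pseudocount of 64 (adjusted p = 0.0107).

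**Figure D3:**
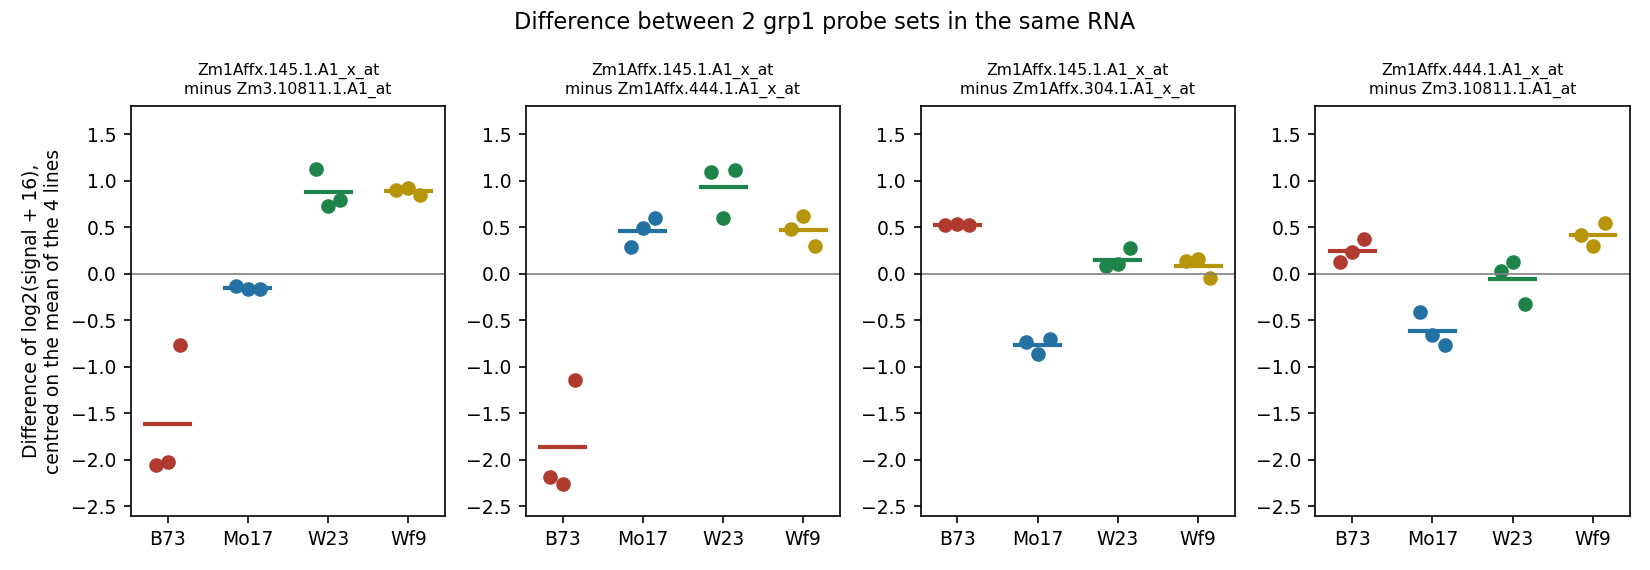
Difference of log2(signal + 16) between 2 grp1 probe sets in the same RNA, centred on the mean of the 4 line means, by line, with a point for each of 3 biological replicates and a bar at their mean. For Zm1Affx.145.1.A1_x_at minus Zm3.10811.1.A1_at, B73 lies lowest and Mo17 lies below W23 and Wf9, and for Zm1Affx.145.1.A1_x_at minus Zm1Affx.304.1.A1_x_at Mo17 lies lowest.

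B73 was also the line whose replicates differed most in the 2 probe sets that were low there. The coefficient of variation over B73 replicates was 46.3% for Zm1Affx.304.1.A1_x_at and 42.9% for Zm1Affx.145.1.A1_x_at, against 3.49% to 10.5% in the other lines, and B73 replicate 3 was the high one in both. Its first array, the one that stands apart from its partner across the array, read 1071 for Zm1Affx.304.1.A1_x_at and its partner 565, whereas for Zm1Affx.145.1.A1_x_at the 2 arrays had 1597 and 1741. Without it the B73 mean was 450 ± 104 for Zm1Affx.304.1.A1_x_at and 1145 ± 521 for Zm1Affx.145.1.A1_x_at, and that of Zm1Affx.444.1.A1_x_at was 82.9 ± 18.7. The log2 difference of Zm1Affx.304.1.A1_x_at between B73 and the mean of the other lines was -2.71 without it and -2.56 with it.

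Another gene of the array, LOC542562, has the synonym GRP in the gene table, and is read by 5 probe sets. Limma's F-test over the 4 lines called 0 of 5, at the adjusted and at the unadjusted threshold alike, against 30.5% of all probe sets, and the smallest adjusted p was 0.502. With 5 probe sets, a count of 0 does not set this gene apart from the rest. Of its 3 bright probe sets, 2 had their lowest mean in B73, within the spread of the replicates. Zm1Affx.1151.1.A1_x_at had 676 ± 344 in B73, against 784 ± 316, 803 ± 360 and 796 ± 267 in Mo17, W23 and Wf9 (SD, n = 3 each). Zm1Affx.1071.1.A1_s_at had 945 ± 234 in B73, against 1040 ± 330, 1195 ± 426 and 952 ± 166. Zm3.1305.1.A1_at had 785 ± 293 in B73, against 604 ± 278, 939 ± 377 and 578 ± 202. Of the 13 probe sets for 8 genes of cell wall proteins (HRGP, a hydroxyproline-rich glycoprotein, prp2 and the expansins, which loosen walls), 6 were above background in at least 1 replicate. Limma called 0 of 13 over the 4 lines, also 0 unadjusted, against 30.5% of all probe sets. Their median log2 difference between B73 and the mean of the other lines was -0.15, against -0.05 over all probe sets.

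Of 719 probe sets of other named genes above background in at least 1 replicate, those most like Zm1Affx.304.1.A1_x_at over the 12 replicates were HDA108, a histone deacetylase (r = 0.94, rho = 0.66), sut1, a sucrose transporter (r = 0.92, rho = 0.55), and LOC542721 (r = 0.86, rho = 0.69), while IDI2 was the most opposite (r = -0.96, rho = -0.76). HDA108 had 98.9 ± 11.5 in B73, against 126 ± 5.20, 123 ± 1.70 and 127 ± 3.81 in Mo17, W23 and Wf9, a far smaller step than that of Zm1Affx.304.1.A1_x_at. Without B73, over 9 replicates, these r were 0.51, -0.04, 0.22 and -0.56. They were picked as the most alike of many, share their arrays and rest on B73 standing apart, so they are a description. HDA108 and sut1 were also the nearest to Zm1Affx.145.1.A1_x_at (r = 0.87 and 0.81), followed by NIP2-2, an aquaporin-like channel (r = 0.81), with LOC541887 the most opposite (r = -0.96). Over the 9 replicates without B73 these r were 0.04, -0.26, 0.20 and -0.87. LOC541887 had a mean of 177 in B73 and 34.8 in Mo17, but was below background in W23 (9.37) and close to it in Wf9 (17.4).

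The nearest to Zm1Affx.444.1.A1_x_at were aoc1, an allene oxide cyclase of the jasmonate pathway (r = 0.87), aba1 (r = 0.86) and PIP1-3, a water channel (r = 0.79), and the most opposite was AGAMOUS, a MADS-box gene (r = -0.91). The AGAMOUS means were below background in B73 (6.38) and Wf9 (10.8) and close to it in W23 (16.8), against 25.2 in Mo17. Those nearest to Zm3.10811.1.A1_at were tua3, an alpha-tubulin (r = 0.78), TATA, of thylakoid protein translocation (r = 0.75), and bsd2, which is needed for Rubisco accumulation (r = 0.74), with the aquaporin sbip1a the most opposite (r = -0.87). For the dim Zm1Affx.145.1.S1_x_at they were LOC542632 (r = 0.90), LOC100125656 (r = 0.89) and GST26, a glutathione transferase (r = 0.86), against dad1 (r = -0.86). The GST26 means were below background in B73 (14.3) and Wf9 (13.0), against 56.8 in Mo17 and 61.0 in W23. Within grp1, Zm1Affx.145.1.A1_x_at and Zm1Affx.304.1.A1_x_at had r = 0.92 over 12 replicates, 0.96 within lines, and -0.37 over the 9 replicates without B73.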

How the data were processed

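Leaf RNA of 4 maize lines was measured on 24 arrays. The authors deposited intensity values on a linear scale, 1 signal per probe set and array, made with MAS5 in GCOS per the submitters' processing notes. No version, scaling target or detection call was used. The 2% trimmed means of the arrays lay between 250.15 and 250.24, which shows that the deposited values were already scaled.

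Arrays were set to 1 trimmed mean, 213 exact zeros were treated as missing, 129 controls were dropped, and log2(signal + 16) was averaged over the 2 arrays of each RNA. The 12 RNAs were fitted with limma 3.58.1 in R 4.3.3 (lmFit, eBayes with trend, line as the only term), adjusted by Benjamini-Hochberg over 8346 probe sets, with a threshold of 0.05 and no filter on low values. The p-values treat the 3 growth replications per line as separate samples. Precision is limited by the 3 replicates per line, since the 2 arrays of each RNA were averaged. Background was the upper 1% point of the signals of 44 control probe sets whose transcripts had not been added. Means and SDs are of the rescaled signal over 3 replicates. Folds are ratios of geometric means with background as a floor. Within-RNA differences between probe sets were tested with all groupings of the replicates, a test added after the values were seen. Both tests were tried on simulated data.

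Members and lists were chosen with earlier results of these data known. All grp1 probe sets are named, with the 3 most and the 1 least correlated probe set of other named genes for each that exceeds background in a replicate. The lists of related genes were to be matched by gene description, which the tables do not hold. By symbol the glycine-rich list matched 0 probe sets and the cell wall list 2, both HRGP at background. The GRP gene, prp2 and the expansins were then added by synonym. Alternatives were other pseudocounts, normalizations, filters, weights, blocks, technical arrays and left-out replicates. No sequence is given for the probe sets or the protein.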

Additional observations from a re-analysis of the deposited data

Results flagged for a closer look

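Within the 6 arrays of a line, 24 sets of values (6 probe sets in 4 lines) were screened for an array lying far from the rest by Dixon's criterion, which chance alone meets in about 1 of 20 sets, and 3 met it. Paired arrays share an RNA, so the 6 are not independent. For Zm1Affx.304.1.A1_x_at, the first array of B73 replicate 3 read 1071, the highest in B73. For Zm1Affx.145.1.A1_x_at, the second array of Mo17 replicate 3 read 3295, the highest in Mo17. For Zm1Affx.444.1.A1_x_at, the second array of Wf9 replicate 3 read 87.3, the highest in Wf9. The cause was not tested.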

How the results depend on the processing

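The difference of Zm1Affx.304.1.A1_x_at between B73 and the mean of the other lines kept its direction in all 26 alternatives, from -2.91 to -2.34 on the log2 scale. The gene was chosen on this difference in the same RNAs, so the range describes its size and is no support for it. The count of grp1 probe sets that differ over Mo17, W23 and Wf9 was 2 of 6. It was 1 with all 24 arrays and the RNA as a random block, 1 on technical array 1 only, 1 with W23 replicates 2 and 3 averaged, and 0 to 2 with 1 replicate left out, where limma found 2 at an unadjusted p under 0.05 in each fit with a count of 0. The count over the 4 lines, 2 of 5, was 1 on technical array 1 only. Of 33 tests between pairs of lines 8 passed, and 5 to 8 with 1 replicate left out, the 5 without Mo17 replicate 2, W23 replicate 1 or W23 replicate 3. Lines share replicate numbers, but deviations from the line means correlated above 0.1 in 15 of 18 same-numbered pairs (-0.63 to 0.62), not in all, and the numbers were not taken to pair the samples. The other 3 pairs all hold W23 replicate 2 (-0.63 to -0.36), the 9 pairs without W23 had 0.24 to 0.62, and 9 of 12 samples correlated best with their own number, a hint of shared rounds from the data and not from the labels. With the number as a block (replicate block) the counts were 2, 2 and 8, and over all probe sets 2960 differed among the 4 lines, against 2549, so the block moved no count by over 1.5 times, and it changed no call of an A1 probe set. Array weights, whose estimation stopped before its tolerance was reached, raised the calls over all probe sets to 5424 over the 4 lines and 4262 over the 3, against 2549 and 2031, and the grp1 counts to 3 of 5 over the 4 lines, 3 of 6 over the 3 lines and 12 of 33 between pairs. W23 minus Wf9, which passed in none of these alternatives for the 3 brighter A1 probe sets, changed sign near 0. It was -0.0229 for Zm1Affx.145.1.A1_x_at with quantile normalization. For Zm1Affx.304.1.A1_x_at it was 0.0363 with array weights, 0.0391 on technical array 1 and -0.0778 to 0.0386 with a replicate left out. For Zm3.10811.1.A1_at it was -0.0281 with W23 replicates 2 and 3 averaged and -0.0344 to 0.203 with a replicate left out. Contrasts of the S1 probe sets changed sign in 25 of 318 values, and 1 of these passed (0.22, array weights). The cause of these changes was not tested. Signal near background limits what can be read from Zm1Affx.444.1.A1_x_at and the S1 probe sets.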
